A study of Mus musculus with 4 samples.

Results

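The matrix metalloproteinases (Mmp), their tissue inhibitors (Timp), the ADAM proteases (Adam), the ADAMTS proteases (Adamts) and the ADAMTS-like proteins (Adamtsl) were examined in the heart mRNA-seq data. The members were picked by gene symbol, with earlier results of these data known. They were 84 of the 23282 genes in the data: 23 Mmp, 4 Timp, 33 Adam, 19 Adamts and 5 Adamtsl genes. Of these, 42 had a mean of at least 4 normalized reads over the 4 heart libraries and are described here, namely 13 Mmp, 4 Timp, 11 Adam, 10 Adamts and 4 Adamtsl genes. Of the other 42, 24 had no read in any library (6 Mmp, 16 Adam and 2 Adamts genes), and the remaining 18 had at most 13 reads in a library. Adam1a, with a mean of 4.03, lay just inside the minimum, and Mmp12 (3.96), Adam33 (3.81), Adamts6 (3.8) and Adamts14 (3.74) lay just outside it.

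All groups were male CDF1 mice, labelled with an age of postnatal day 28, and the study had 10 mice per group. The paper gives this age for the purchase of the mice. The hearts were taken at the end of the experiment, so from older mice. The normal control E(-)T(-) had neither exercise nor tumor, the normal exercise group E(+)T(-) ran on a treadmill at high intensity, and the cancer control E(-)T(+) received CT26 colorectal carcinoma cells through the tail vein without exercise. The cancer exercise group E(+)T(+) had both. There was 1 heart library per group. The paper names a representative mouse of each group for the gastrocnemius muscle and a similar analysis for the heart. This would make it 1 mouse per library, though this is not said of the heart itself. So the spread between mice cannot be measured and no test between groups is possible.

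Mmp enzymes are secreted or membrane-bound zinc proteases that cut collagens, proteoglycans and other matrix proteins, and most are made as inactive precursors that another protease must open. Timp proteins bind the active site of these enzymes, and Timp3 also blocks several ADAM and ADAMTS enzymes. ADAM proteases cut membrane proteins and release their outer parts, whereas ADAMTS enzymes are secreted and cut matrix proteins such as versican or the ends of procollagens. In the heart, matrix turnover by these families is known from remodelling after injury and from inflammation, where fibroblasts and invading leukocytes are among their sources.

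The libraries held between 6595441 and 11545875 recovered reads. The QuantSeq method reads mRNA from its 3′ end, and each molecule gives a read whatever its length, so levels of different genes can be set side by side as normalized reads. Globin genes supplied 37.3% of the reads of the cancer exercise library and 7.86% to 8.76% of those of the other 3. Cardiomyocyte markers were abundant in all 4 libraries, with a summed level of 274590 to 323852 normalized reads over 6 genes. Scaling to the library totals, globin included, lowered the median log2 change of all genes to -0.59 in E(+)T(+) vs. E(-)T(+) and to -0.73 in E(+)T(+) vs. E(+)T(-), against -0.01 and -0.02 on the authors' scale. Changes are differences of log2 values with 1 added to each normalized count, which makes changes of genes with few reads look smaller. The 95% intervals are exact for the ratio of reads. They take in counting error alone, and reads that are PCR copies of 1 molecule are not independent.

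Mmp3, Mmp8 and Mmp13 lie in 1 cluster of 10 Mmp genes on mouse chromosome 9, spanning 427 kb in GRCm38 (chr9:7272514-7699585), and are shown first because neighbouring genes behaved differently. From the low end, the order is Mmp13, Mmp12, Mmp1b, Mmp3, Mmp1a, Mmp10, Mmp8, Mmp27, Mmp20 and Mmp7. Of these, 5 had no read in any library, and Mmp13, Mmp3 and Mmp8 passed the minimum. Promoter sequence is given below for these 3 genes and for the inhibitor Timp1, from 200 bases before to 10 after the annotated start, 5′ to 3′ on the plus strand, from RefSeq (GRCm38.p6), with capitals for the AP-1 motif TGANTCA.
Mmp3, chr9:7445622-7445831: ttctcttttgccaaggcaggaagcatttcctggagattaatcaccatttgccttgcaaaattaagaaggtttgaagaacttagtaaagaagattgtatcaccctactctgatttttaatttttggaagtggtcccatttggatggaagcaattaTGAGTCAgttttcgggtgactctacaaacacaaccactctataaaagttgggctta
Mmp13, chr9:7272314-7272523: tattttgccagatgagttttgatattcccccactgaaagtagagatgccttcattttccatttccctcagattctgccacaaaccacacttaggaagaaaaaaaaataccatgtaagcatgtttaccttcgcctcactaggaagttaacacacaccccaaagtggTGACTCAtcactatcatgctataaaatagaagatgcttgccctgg
Mmp8, chr9:7558229-7558438: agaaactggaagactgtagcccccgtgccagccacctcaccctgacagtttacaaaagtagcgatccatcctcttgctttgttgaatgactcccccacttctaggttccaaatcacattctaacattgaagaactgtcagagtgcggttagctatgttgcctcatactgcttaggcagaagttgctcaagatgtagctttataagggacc
Timp1, chrX:20869966-20870175: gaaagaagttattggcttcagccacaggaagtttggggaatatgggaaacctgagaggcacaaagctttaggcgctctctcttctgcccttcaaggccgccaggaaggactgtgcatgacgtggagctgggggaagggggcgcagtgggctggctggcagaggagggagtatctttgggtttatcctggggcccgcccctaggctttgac

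The AP-1 motif began 46 bases before the start in Mmp3 and 35 bases before it in Mmp13, and a TATAAA motif followed at 7 and 16 bases before the start. Mmp8 held no AP-1 match but a TATAAA motif on the other strand, and Timp1 held a GC box (GGGCGG or its reverse) 8 bases before the start. Motifs were searched on both strands in windows from 250 bases before to 50 after the start, and none of the 3 motifs is contained in another. TGANTCA was found in 8 of the 12 windows of the cluster (66.7%), in 3 of the 30 windows of described members (10%: Adam19, Mmp13 and Mmp3) and in 7.81% of all 32851 mouse windows. TATAAA was found in 9 of the 12 cluster windows (75%) against 13.6% of all windows. GGGCGG was found in none of the 12 cluster windows, in 20 of the 30 windows of described members (66.7%) and in 35.7% of all windows. Of the members, 53 had a window, 27 of them described, and a match is a description of letters, not of a bound site. Mmp3 and Mmp13 thus share both motifs, while Mmp3 had most reads in the cancer control and Mmp13 was read only without a tumor.

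By the level of each gene, the inhibitors were the most abundant class in every library. The 4 Timp genes summed to 9483 normalized reads in the normal control, 9449 with exercise alone, 12971 with cancer alone and 9445 with both. All 23 Mmp genes, those below the minimum included, summed to 1684, 1673, 5084 and 2186 in the same order. Thus the Mmp sum was close to level in both normal libraries and highest in the cancer control. The ratio of the Timp sum to the Mmp sum was 5.63 in the normal control, 5.65 with exercise alone, 2.55 with cancer alone and 4.32 with both, a value that does not depend on scaling between libraries. Likewise, all 19 Adamts genes summed to 1132, 1412, 3093 and 2628, and all 33 Adam genes to 1432, 1699, 1766 and 1886. With 1 library per group, how far such sums differ between mice of 1 group is not known. In bulk tissue, fewer cells of a type and less RNA per cell cannot be told apart.

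**Figure D1:**
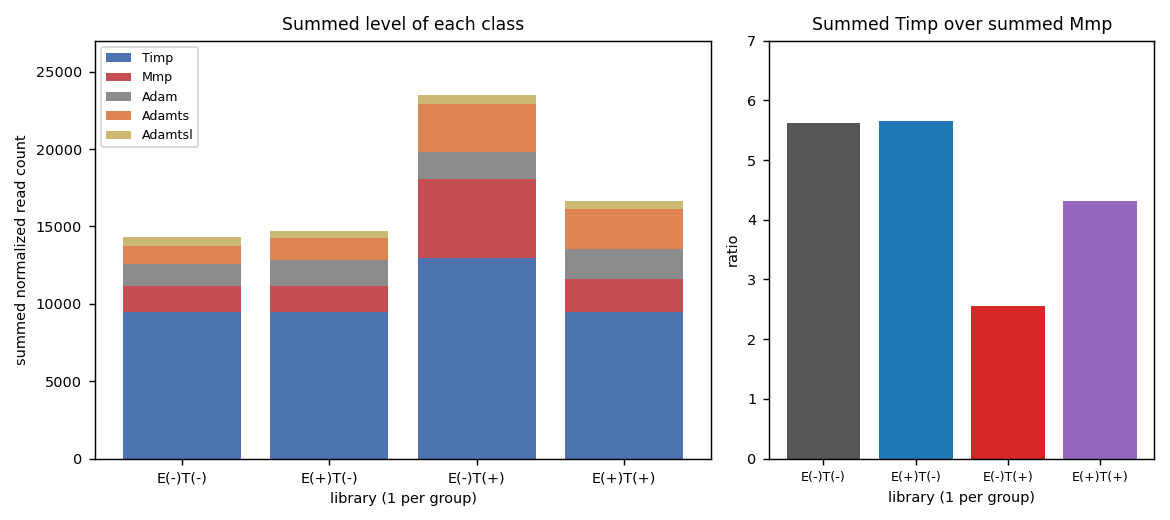
Left, summed normalized read counts of all Timp, Mmp, Adam, Adamts and Adamtsl members, described or not, stacked, in each of the 4 heart libraries (1 per group, no error bars). Right, the Timp sum divided by the Mmp sum. The stack reaches 23464 normalized reads with cancer alone and 14287 in the normal control, and the ratio is lowest in E(-)T(+), at 2.55.

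A gene was called when it differed by 2-fold or more and reached 4 normalized reads in either library of the comparison. Exercise in normal mice [E(+)T(-) vs. E(-)T(-)] asked what training did without a tumor. Here 7 of the 42 members were higher (Mmp3, Timp1, Adam1a, Adamts2, Adamts4, Adamts8 and Adamts15), or 16.7%, against 4.77% of the 13725 genes with a mean of at least 4. Adam1a was under 4 normalized reads in both sedentary libraries (3.472 and 0) and passed the minimum through the exercised ones (8.273 and 4.37). The minimum thus favoured its calls in both exercise comparisons. Lower were 3 members (Mmp13, Adam12 and Adamtsl3), or 7.14%, against 5.17% of all genes. Thus 4 of the 7 higher members were ADAMTS genes, and no ADAMTS gene was called lower, with Adamts5 at -0.70 (-0.94 to -0.46) and Adamts7 at -0.58 (-1.30 to 0.08). The counting interval excluded no change for 6 of the higher and 1 of the lower members, against 3.39% and 3.52% of all genes. The median log2 change of the members was 0.05, against 0.002 over all genes.

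Cancer in sedentary mice [E(-)T(+) vs. E(-)T(-)] gave the most calls on the authors' scale, 22 members, and with scaling to library totals 22 as well, as many as exercise in cancer-bearing mice. The share of all genes called with that scaling is not given. On the authors' scale, higher were 16 of 42 members (38.1%) against 12.9% of all genes, and lower were 6 (14.3%) against 12.1%. The higher members were Mmp2, Mmp3, Mmp8, Mmp9, Mmp14, Mmp19, Timp1, Adam8, Adam9, Adam12, Adam23, Adamts1, Adamts2, Adamts4, Adamts8 and Adamts15. The lower ones were Mmp13, Mmp15, Mmp16, Timp4, Adam19 and Adamts7. Mmp8 and Adam8 were under 4 normalized reads in both normal libraries and passed the minimum through the cancer libraries. Mmp13 was under 4 in both cancer libraries and passed it through the normal ones. The minimum itself thus favoured the calls of these genes in both cancer comparisons. The interval excluded no change for 15 higher and 5 lower members, against 11.4% and 10.9% of all genes, and the share of lower members was close to the background. The median of the members was 0.17, against -0.02 over all genes.

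For exercise under cancer, E(+)T(+) was set against E(-)T(+), and most calls were lower. Lower were 10 of 42 (23.8%) against 8.46% of all genes, namely Mmp2, Mmp3, Mmp14, Timp1, Adam8, Adam9, Adam12, Adam23, Adamts2 and Adamts15. Higher were 3 (7.14%) against 7.69% of all genes, namely Mmp8, Adam1a and Adamts3. As said above, the minimum favoured the call of Adam1a. The interval excluded no change for all 10 lower members and for Mmp8 alone of the higher ones, against 7.06% and 6.43% of all genes. The median of the members was -0.54 against -0.01 over all genes, and with scaling to library totals it was -1.10 against -0.59, with 22 members lower and 0 higher. The share of all genes called with that scaling is not given, so these counts have no background beside them. This comparison and the one of cancer in sedentary mice share the library E(-)T(+), so a high value in that library enters both with opposite signs.

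Cancer in exercised mice [E(+)T(+) vs. E(+)T(-)] gave 7 higher members (16.7%) against 10% of all genes, namely Mmp3, Mmp8, Mmp9, Timp1, Adam8, Adam12 and Adamts1. Lower were 5 (11.9%) against 10.1% of all genes, namely Mmp13, Mmp15, Mmp23, Adam19 and Adamts7. The interval excluded no change for all of these 12 members, against 8.79% of all genes in each direction. The median of the members was -0.01 against -0.02 over all genes, and with scaling to library totals it was -0.69 against -0.73, with 5 members higher and 16 lower. Here too, the counts with that scaling have no share of all genes beside them.

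**Figure D2:**
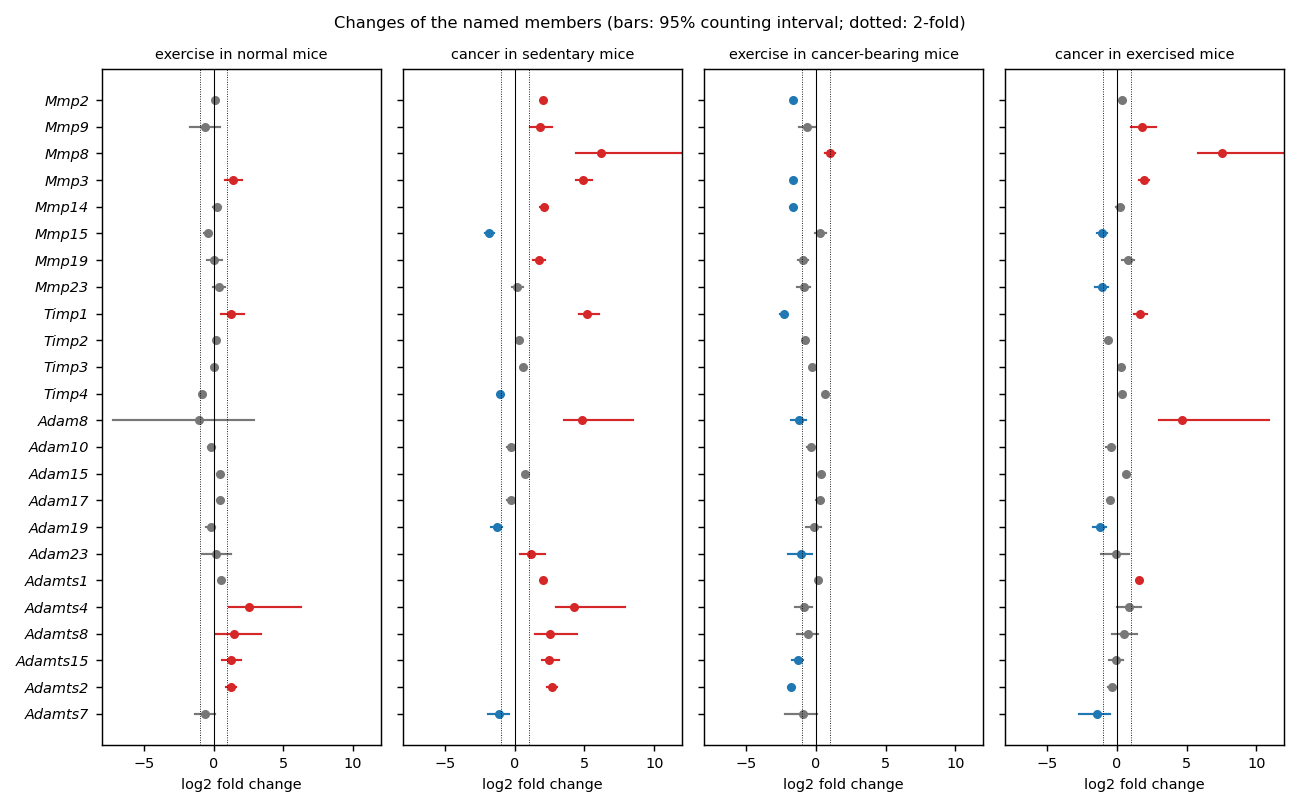
Log2 fold changes of the 24 named members in the 4 comparisons, each in its own panel. Points are changes of the deposited values, bars are 95% intervals of the ratio of reads (counting error only, cut at the panel edge), red and blue points are at least 2-fold higher and lower, and dotted lines mark 2-fold. Mmp8 has no point in normal mice, where both libraries had 0 reads, and with cancer in sedentary mice Mmp8, Timp1 (5.22), Mmp3 and Adam8 lie furthest to the right.

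The 2 exercise comparisons share no library, and so do the 2 cancer comparisons. Contra-regulated genes, higher with exercise in normal mice and lower with exercise in cancer-bearing mice, were 4 of the 42 members (Mmp3, Timp1, Adamts2 and Adamts15), or 9.52%, against 0.947% of all genes. The opposite pattern was found in 0 members and in 0.882% of all genes. Higher in both cancer comparisons were 7 members (16.7% against 5.06% of all genes), namely Mmp3, Mmp8, Mmp9, Timp1, Adam8, Adam12 and Adamts1. Lower in both were 4 members (9.52% against 3.98%), namely Mmp13, Mmp15, Adam19 and Adamts7. As said above, the minimum favoured the calls of Mmp8, Adam8 and Mmp13 among these. No call in any comparison was made for 16 members (38.1%), against 60.2% of all genes.

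**Figure D3:**
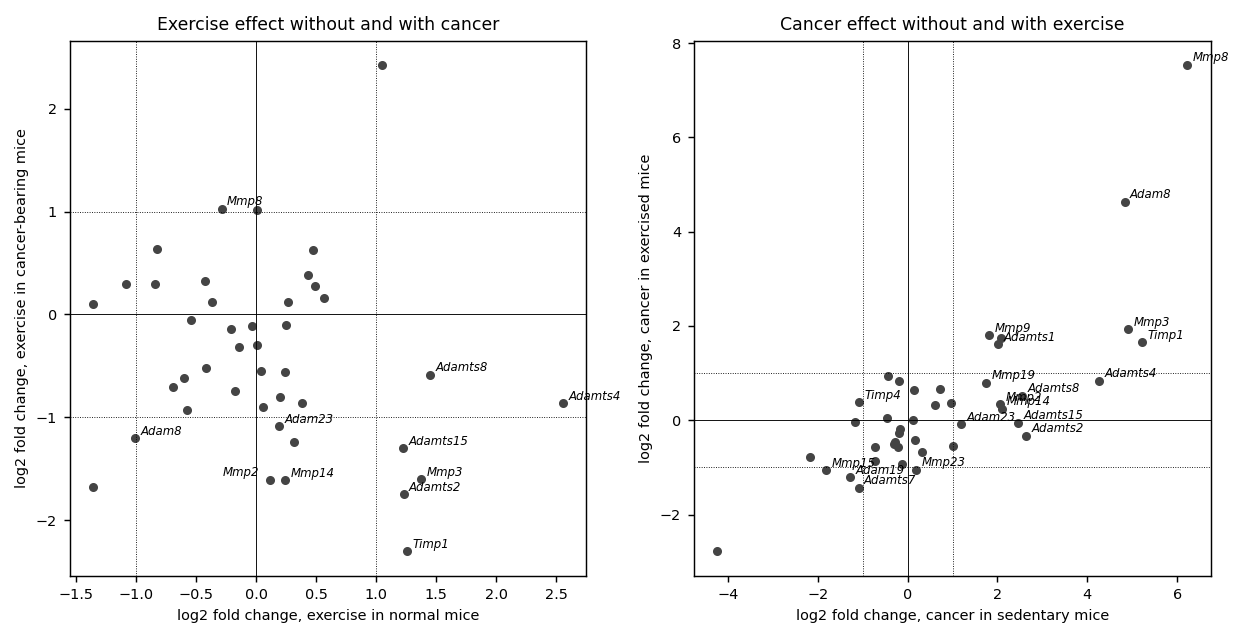
Left, log2 fold change with exercise in normal mice (x axis) and in cancer-bearing mice (y axis). Right, log2 fold change with cancer in sedentary mice (x axis) and in exercised mice (y axis). Each point is 1 of the 42 described members, dotted lines mark 2-fold, and points of genes with 0 reads in a library depend on the added 1. In the left panel Timp1 (1.26 and -2.30), Mmp3, Adamts2 and Adamts15 lie at the lower right, and in the right panel Mmp8, Adam8, Mmp3 and Timp1 lie at the upper right.

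Among the inhibitors, Timp1, a secreted inhibitor known to be induced by inflammatory signals, was the one that moved most. It had 20.92 normalized reads in the normal control, 51.38 with exercise alone, 814.2 with cancer alone and 164.2 with both. The cancer control was highest, the cancer exercise library second and the normal control lowest. Its log2 change was 1.26 (95% interval 0.54 to 2.17) with exercise in normal mice, 5.22 (4.63 to 6.06) with cancer in sedentary mice and -2.30 (-2.57 to -2.06) with exercise in cancer-bearing mice. With cancer in exercised mice it was 1.66 (1.22 to 2.14), and 0.94 with scaling to library totals. Timp1 took 0.221% of the Timp sum in the normal control, 0.544% with exercise alone, 6.28% with cancer alone and 1.74% with both.

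Timp3, which binds to the matrix, was the most abundant member, with 4649, 4659, 7140 and 5800 normalized reads in the same order of libraries. Timp2, which also takes part in the activation of Mmp2 by Mmp14, had 3491, 3997, 4392 and 2513. Neither reached 2-fold in any comparison on the authors' scale, and Timp2 passed it with scaling to library totals, at -1.39 in both comparisons of E(+)T(+). Timp4, the inhibitor known for its expression in heart, had 1321, 742.4, 624.1 and 967.8 normalized reads. It was highest in the normal control and lowest in the cancer control, and only its change with cancer in sedentary mice reached 2-fold, at -1.08 (-1.22 to -0.95). Thus Timp1 and Timp4 were called in opposite directions in the cancer control. Timp1, Timp3 and Timp4 lie within the synapsin genes Syn1, Syn3 and Syn2 on the opposite strand, which had at most 55 reads in a library.

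The gelatinases cut denatured collagen and basement membrane collagen. Mmp2 had 583.5 normalized reads in the normal control, 630.2 with exercise alone, 2436 with cancer alone and 797.4 with both. The cancer control stood above the other 3 libraries, with a change of 2.06 (1.93 to 2.20) from E(-)T(-) and of -1.61 (-1.73 to -1.49) from E(-)T(+) to E(+)T(+). Mmp2 made up 47.9% of the Mmp sum in E(-)T(+) and 34.6% to 37.7% in the others. Mmp14, a membrane-bound enzyme that activates the Mmp2 precursor, had 165.2, 195.3, 707.7 and 230.8 normalized reads. Like Mmp2, it was highest in the cancer control, with changes of 2.09 (1.84 to 2.37) with cancer in sedentary mice and -1.61 (-1.84 to -1.40) with exercise in cancer-bearing mice. With cancer in exercised mice the changes of Mmp2 and Mmp14 were 0.34 and 0.24, and -0.38 and -0.48 with scaling to library totals.

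Mmp9, the gelatinase known from neutrophil granules, had 18 reads in the normal control, 15 with exercise alone, 86 with cancer alone and 45 with both. Both cancer libraries were above both normal ones, with changes of 1.82 (1.13 to 2.70) in sedentary and 1.80 (0.99 to 2.81) in exercised mice. Mmp8, the neutrophil collagenase, had 0 reads in both normal libraries, 102 with cancer alone and 169 with both. With the normal library set to the floor of 3 reads, the log2 change of Mmp8 was 4.71 with cancer in sedentary mice and 6.09 in exercised mice. The counting intervals began lower, at 4.385 and 5.776. Its change with exercise in cancer-bearing mice was 1.02 (0.68 to 1.41), which became 0.45 with scaling to library totals and 0.96 when genes over 1% of a library were left out of the library sizes. Adam8, a membrane protease known from leukocytes, had 2, 1, 112 and 39 reads. It was higher in both cancer libraries, by 4.83 (3.54 to 8.49) in sedentary and 4.64 (2.996 to 10.90) in exercised mice, and lower, at -1.20 (-1.78 to -0.67) with exercise in cancer-bearing mice.

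Markers of neutrophils moved with these genes. The summed level of 10 neutrophil markers, including S100a8, S100a9 and Ngp, was 129 normalized reads in the normal control, 90.24 with exercise alone, 3114 with cancer alone and 5961 with both. Of the 9 markers with a mean of at least 4, 8 were higher with cancer in sedentary and 8 in exercised mice, and 3 were higher with exercise in cancer-bearing mice, while none of the 10 was at 0 in all libraries. Mmp8 and the marker sum were highest in E(+)T(+), whereas Adam8 and Mmp9 were highest in E(-)T(+). Their part in the result was not tested.

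**Figure D4:**
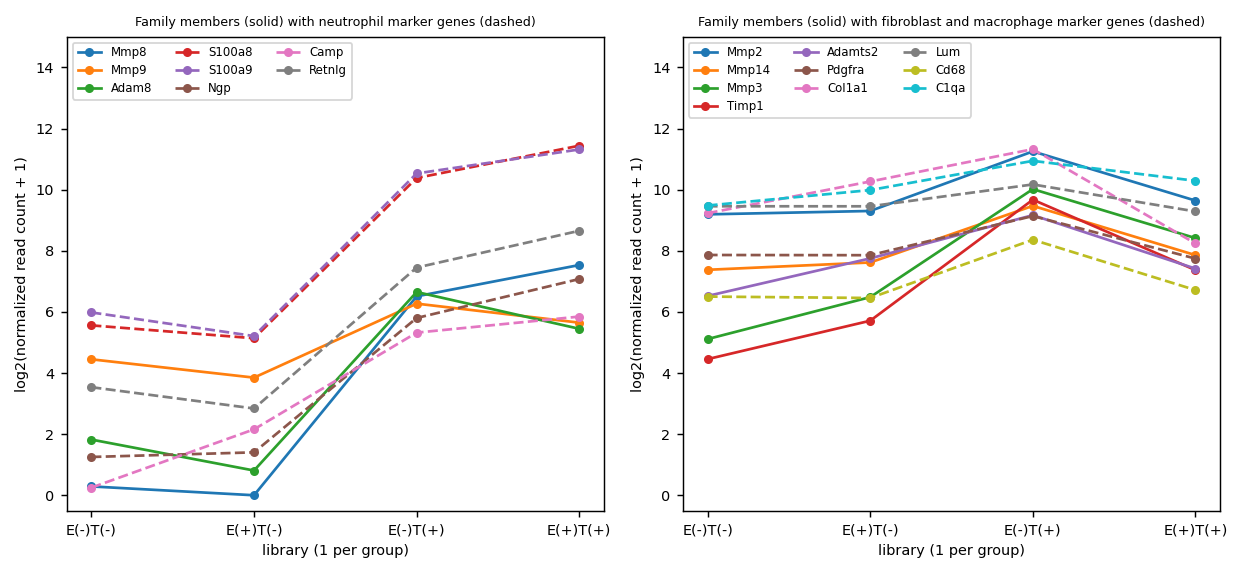
Level of family members (solid lines) with single neutrophil markers (left, dashed) and fibroblast and macrophage markers (right, dashed) in the 4 heart libraries, on the log2(normalized read count + 1) scale. Lines join the libraries of 1 gene for reading only. The markers drawn are a part of each list: S100a8, S100a9, Ngp, Camp and Retnlg on the left, and Pdgfra, Col1a1, Lum, Cd68 and C1qa on the right. On the left the genes drawn are higher in both cancer libraries than in both normal ones, and on the right those drawn peak in E(-)T(+). Of the listed markers not drawn, Tcf21, Dpt, Csf1r and Adgre1 peak in a normal library, and Elane had few reads in all libraries.

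Among the stromelysins, Mmp3 cuts proteoglycans and fibronectin and activates other Mmp precursors. It had 29 reads in the normal control, 98 with exercise alone, 1173 with cancer alone and 311 with both, or 33.54, 88.45, 1035 and 340.1 normalized reads. Every library with exercise or a tumor was above the normal control, and the cancer control was highest. The changes were 1.37 (0.80 to 2.07) with exercise in normal mice, 4.91 (4.43 to 5.55) with cancer in sedentary mice, -1.60 (-1.79 to -1.42) with exercise in cancer-bearing mice and 1.93 (1.61 to 2.28) with cancer in exercised mice. Mmp11, the other stromelysin read here, had 43.82 to 74.17 normalized reads and reached 2-fold in no comparison. The collagenase Mmp13 had 16 reads in the normal control, 7 with exercise alone and 0 in both cancer libraries. It was lower, at -1.36 (-3.06 to -0.17) with exercise in normal mice. With 0 reads set to the floor of 3 reads, its change was -2.79 with cancer in sedentary mice. In exercised mice this value was -0.95, short of 2-fold. The counting intervals of the 2 cancer comparisons ended nearer to no change, at -2.325 and -0.253. Thus, of 3 genes of the cluster, Mmp3 and Mmp8 were higher with cancer and Mmp13 was not detected there.

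Mmp15, a membrane-type enzyme, had 329.8 normalized reads in the normal control, 245.3 with exercise alone, 93.29 with cancer alone and 117.1 with both. Both cancer libraries were below both normal ones, at -1.81 (-2.16 to -1.49) in sedentary and -1.06 (-1.40 to -0.74) in exercised mice. Thus Mmp14 and Mmp15 moved in opposite directions with cancer in sedentary mice. Of 4 endothelial markers, 3 were lower with cancer in sedentary mice (Kdr, Tek and Cdh5), while Pecam1 was at 0.55, and the sum went from 5441 to 3623 normalized reads. With cancer in exercised mice none of the 4 reached 2-fold, with Kdr at -0.82, Tek at -0.14, Cdh5 at -0.01 and Pecam1 at 0.90. Their part in the result was not tested. Mmp16 had 15, 10, 8 and 8 reads and Mmp17 16, 24, 19 and 10, too few to order the libraries. Mmp23 had 95.14, 124, 108.5 and 59.17 normalized reads, was lowest in E(+)T(+) and was called there against E(+)T(-), at -1.06 (-1.55 to -0.61).

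Mmp19 had 59 reads in the normal control, 78 with exercise alone, 260 with cancer alone and 112 with both, and was called with cancer in sedentary mice, at 1.75 (1.35 to 2.20). Tmem198b, which overlaps it on the opposite strand, had 56, 74, 247 and 108 reads, within 5.13% of Mmp19 in every library. Mmp24 had 234, 229, 222 and 195 reads, and the overlapping BC029722 on the opposite strand had 244, 233, 225 and 196, within 4.27%. The sources do not say whether the counting used the strand, so the reads of each pair cannot be told apart, and Mmp19 and Mmp24 are uncertain. In all, 12 described members overlap another gene in the data, and these were the 2 with near-equal reads, within a tolerance of 6%.

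**Figure D5:**
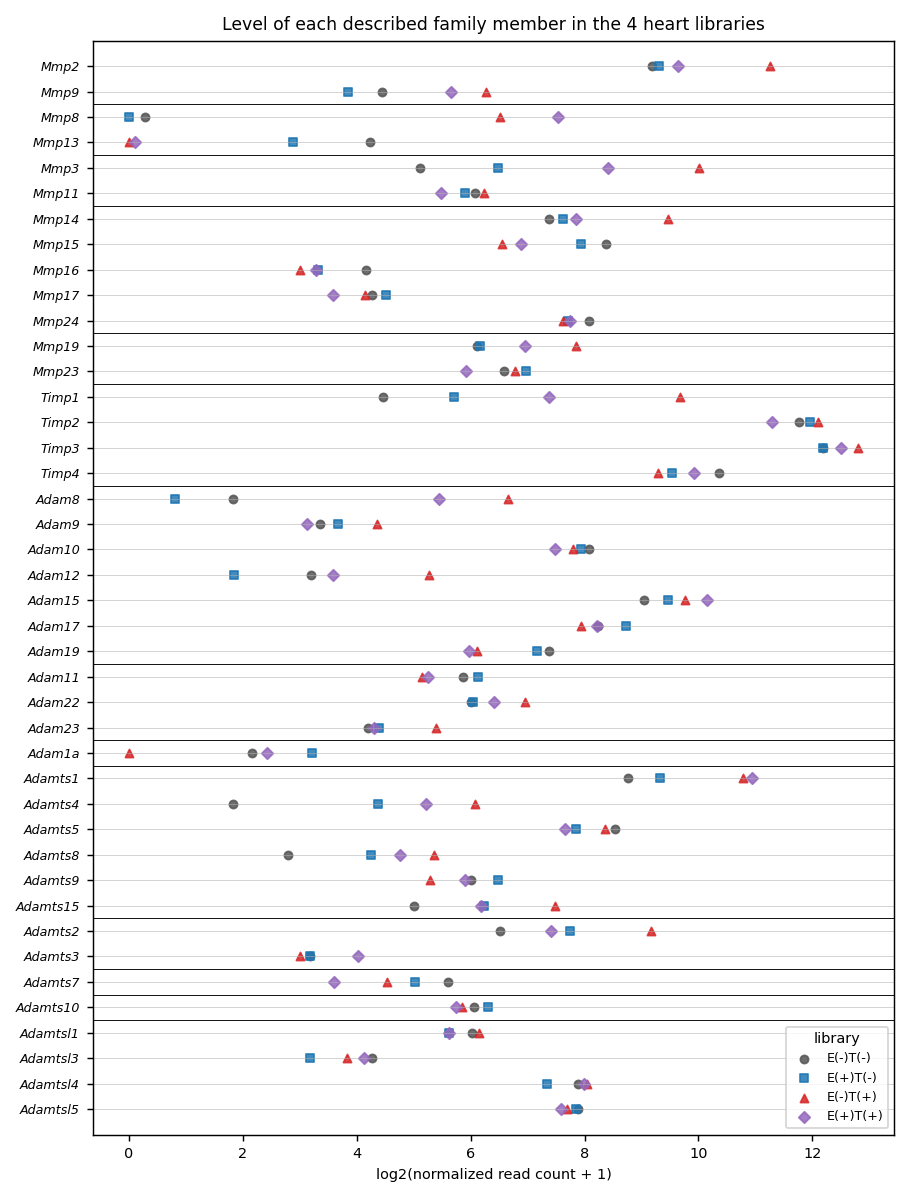
Level of each of the 42 described members in the 4 heart libraries (x axis, log2 of the normalized read count plus 1), grouped by role from the gelatinases at the top to the ADAMTS-like genes at the bottom. Each marker is 1 library, and there are no error bars because each group has 1 library. Timp3 and Timp2 lie furthest to the right, and the red triangles of E(-)T(+) lie to the right of the other libraries for Mmp2, Mmp3, Mmp14, Timp1 and Adamts2.

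Of the 7 ADAM proteases with a catalytic site, 3 were higher (Adam8, Adam9 and Adam12) and 1 lower (Adam19) with cancer in sedentary mice. Adam10, the shedding protease known for Notch and cadherins, had 270.3, 244.2, 222.2 and 178.3 normalized reads in the normal control, with exercise alone, with cancer alone and with both. Adam17, which releases Tnf and its receptors, had 300.3, 421.6, 245.1 and 297.6. Adam15 had 523.9, 708.2, 867.3 and 1130. These 3 genes reached 2-fold in no comparison on the authors' scale, their largest size of change being 0.73 (0.57 to 0.89), for Adam15 with cancer in sedentary mice. With scaling to library totals Adam10 (-1.17) and Adam17 (-1.22) passed 2-fold with cancer in exercised mice, and Adam15 turned from 0.67 to -0.05 there and from 0.38 to -0.20 with exercise in cancer-bearing mice.

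Adam19, a protease known from heart valve development, had 165.9, 143, 67.78 and 61.38 normalized reads. Both cancer libraries were below both normal ones, at -1.28 (-1.71 to -0.88) in sedentary and -1.21 (-1.69 to -0.77) in exercised mice. Adam12 had 7, 3, 42 and 10 reads and was highest in the cancer control, with changes of 2.07 (1.04 to 3.61) with cancer in sedentary mice and -1.68 (-2.92 to -0.74) with exercise in cancer-bearing mice. Adam9 had 8, 13, 22 and 7 reads, and its call with cancer in sedentary mice had an interval that included no change (-0.14 to 2.46). Of the ADAM proteins without a catalytic site, Adam23 had 17.3, 19.85, 40.79 and 18.66 normalized reads and was called in both comparisons with the cancer control, at 1.19 (0.37 to 2.19) against the normal control, and the cancer exercise library was lower, at -1.09 (-2.02 to -0.30). Adam11 and Adam22 reached 2-fold in no comparison. Adam1a had 3, 9, 0 and 4 reads, and the intervals of both its calls included no change.

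The ADAMTS proteases that cut proteoglycans such as versican were led by Adamts1. It had 433.4 normalized reads in the normal control, 641.3 with exercise alone, 1760 with cancer alone and 1961 with both. Both cancer libraries were above both normal ones, by 2.02 (1.86 to 2.18) in sedentary and 1.61 (1.49 to 1.74) in exercised mice, the last being 0.89 with scaling to library totals. Where Mmp2 and Timp1 were lower with exercise in cancer-bearing mice, Adamts1 changed by 0.16 (0.06 to 0.25) on the authors' scale and by -0.43 with scaling to library totals.

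Adamts15, Adamts4 and Adamts8 of the same group were higher both with exercise in normal mice and with cancer in sedentary mice, comparisons that share E(-)T(-). Adamts15 had 31.2, 74.11, 176.8 and 71.15 normalized reads, with changes of 1.22 (0.62 to 1.95), 2.46 (1.93 to 3.15) and, for exercise in cancer-bearing mice, -1.30 (-1.74 to -0.90). Adamts4 had 2, 22, 75 and 33 reads, with changes of 2.56 (1.09 to 6.25) and 4.26 (2.95 to 7.92). Adamts8 had 5, 20, 45 and 24 reads, with changes of 1.45 (0.20 to 3.43) and 2.56 (1.46 to 4.48). All 3 were lowest in the normal control and highest in the cancer control. Adamts5 (371.2, 228.8, 328.2 and 201.3 normalized reads) and Adamts9 (63.04, 87.83, 37.8 and 59.09) reached 2-fold in no comparison.

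Adamts2, which removes the amino-terminal propeptide of fibrillar procollagens, had 90.84 normalized reads in the normal control, 214.3 with exercise alone, 573 with cancer alone and 169.7 with both. The normal control was lowest and the cancer control highest, while both exercise libraries lay between. The changes were 1.23 (0.87 to 1.63) with exercise in normal mice, 2.64 (2.32 to 3.02) with cancer in sedentary mice and -1.75 (-2.02 to -1.501) with exercise in cancer-bearing mice. With cancer in exercised mice the change was -0.34 (-0.64 to -0.04), and -1.05 with scaling to library totals. Adamts3 of the same role had 7, 9, 8 and 14 reads. Adamts7, known to cut the cartilage protein Comp, had 47.84, 31.67, 21.98 and 11.07 normalized reads, and was lower, at -1.09 (-1.90 to -0.38) with cancer in sedentary and -1.44 (-2.71 to -0.49) in exercised mice. The overlapping Tbc1d2b lies on the opposite strand of Adamts7. Of the 4 Adamtsl genes, which lack the protease part, Adamtsl3 alone was called, on 9 reads against 16 with exercise in normal mice, and its interval included no change (-2.53 to 0.09).

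Some fibroblast and macrophage markers moved with several of these genes. The sum of 6 fibroblast markers was 23402 normalized reads in the normal control, 26654 with exercise alone, 46688 with cancer alone and 32117 with both, and that of 6 macrophage markers was 2674, 3589, 5751 and 3275. Both sums were highest in the cancer control, as were Mmp2, Mmp3, Mmp14, Timp1, Adam12, Adamts2 and Adamts15. On the log2 scale the fibroblast sum changed by 0.996 and the macrophage sum by 1.10 with cancer in sedentary mice, and by -0.54 and -0.81 with exercise in cancer-bearing mice. Dcn made up most of the fibroblast sum, with 40453 of the 46688 normalized reads with cancer alone. With cancer in sedentary mice, 2 of the 6 fibroblast markers (Pdgfra and Col1a1) were called higher and Tcf21 was at -0.55, and 4 of the 6 macrophage markers were called higher, with Csf1r at -0.11 and Adgre1 at -0.37. With exercise in cancer-bearing mice, 2 of 6 were called lower in each list. None of these 12 markers was at 0 in all libraries. Smooth muscle markers summed to 2098, 6004, 4606 and 4213 normalized reads, lowest in the normal control and highest with exercise alone. Adamts4, Adamts8 and Adamts15 were also lowest in the normal control but highest in the cancer control. Mmp2, Mmp3, Mmp14, Timp1, Adam15, Adamts1 and Adamts2 were among the other members lowest in the normal control. The part of all these markers in the results was not tested. Adipocyte markers (1127, 255.4, 82.22 and 718.1) and lung epithelium markers (581.7, 147.6, 503.3 and 1721) also differed between libraries, and the 7 erythroid markers in the data were all higher in E(+)T(+) than in both libraries it was compared with.

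The partners of these proteases came from 4 lists, and their counts are to be read against the shares of all genes called higher and lower. These were 4.77% and 5.17% with exercise in normal mice, 12.9% and 12.1% with cancer in sedentary mice, 7.69% and 8.46% with exercise in cancer-bearing mice, and 10% and 10.1% with cancer in exercised mice. Of 13 activators and regulators with a mean of at least 4, 3 were higher and 0 lower with exercise in normal mice, 7 and 1 with cancer in sedentary mice, 1 and 3 with exercise in cancer-bearing mice and 1 and 2 with cancer in exercised mice. The 7 higher with cancer in sedentary mice were 53.8% of the list, whereas 1 and 2 with cancer in exercised mice were 7.69% and 15.4%, near the shares of all genes. Furin, the protease that opens Mmp14 and many ADAM precursors, changed by 1.06 (0.90 to 1.23) with cancer in sedentary mice. Pcsk6, a related convertase, had 909.8, 705.7, 114.4 and 341.3 normalized reads, and its change of -2.98 (-3.27 to -2.72) in the cancer control went against that of Furin. Thbs1, a matrix glycoprotein that binds Mmp2, was higher by 2.56 (1.90 to 3.46) with exercise in normal mice and by 2.17 (1.501 to 3.08) with cancer in sedentary mice. Plau, the urokinase activator, was lower, at -2.78 (-4.70 to -1.69) with exercise in cancer-bearing mice, on 5 reads against 50, and Serpine2, a protease inhibitor, was lower, at -1.40 (-1.52 to -1.28).

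Among 11 matrix substrates, 4 were higher with exercise in normal mice, 6 with cancer in sedentary mice and 1 with cancer in exercised mice, while 5 were lower with exercise in cancer-bearing mice and 4 with cancer in exercised mice. The 6 were 54.5% of the list and the 5 were 45.5%, whereas the 1 was 9.09%. Vcan (versican), a substrate of Adamts1, Adamts4 and Adamts15, changed by 1.02 (0.72 to 1.34), 2.44 (2.17 to 2.74), -1.57 (-1.79 to -1.36) and -0.15 (-0.41 to 0.10) with exercise in normal mice, cancer in sedentary mice, exercise in cancer-bearing mice and cancer in exercised mice. Col3a1, a fibrillar collagen, changed by 0.86 (0.75 to 0.97), 1.86 (1.76 to 1.96), -3.31 (-3.46 to -3.16) and -2.31 (-2.47 to -2.16) in the same order. Thus, on the authors' scale, Vcan was near its level of E(+)T(-) in E(+)T(+), whereas Col3a1 was below it. Scaling to library totals lowered the median of all genes in that comparison to -0.73. Of 14 shed membrane proteins, 4 were higher and 3 lower with cancer in sedentary mice, with 0 calls for exercise in normal mice, and 28.6% and 21.4% of the list stand for the 4 and the 3. Ereg (3.16, interval 1.75 to 6.81, on 34 reads against 2), Tnfrsf1a (1.49, 1.30 to 1.70), Hbegf (1.26, 1.02 to 1.51) and Cd44 (1.16, 0.82 to 1.52) were higher. Lower were Btc (-1.36, -2.78 to -0.24, on 9 reads against 19), Cdh5 (-1.26, -1.445 to -1.087) and Cx3cl1 (-1.15, -1.74 to -0.61). Of 7 ADAM trafficking partners, 0 were called in E(+)T(-) or E(-)T(+) against the normal control. In each of the comparisons of E(+)T(+), 1 was higher (14.3%) and 2 were lower (28.6%). Tspan33 was higher by 3.18 (2.54 to 4.05) with exercise in cancer-bearing mice, beside the erythroid markers named above. Lower there were Tspan15, at -1.30 (-2.10 to -0.63) on 22 reads against 69, and Rhbdf2, a carrier of Adam17, at -1.12 (-2.50 to -0.08) on 9 reads against 26.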

How the data were processed

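Heart RNA of 4 groups of mice was sequenced by the study with the QuantSeq kit, 1 library per group. Per the labels and the methods, the authors used Bowtie2 for alignment to mm10, Bedtools for read counts of genes and the quantile normalization of edgeR. What the authors deposited is, for each gene and library, log2 of the normalized read count plus 1. Whole reads were recovered from them with a fitted common dispersion of 0.149. These reads return every deposited value to within 0.000569. Of the 25008 values of 5 to 99 reads, 100% were whole to within 0.1 read. The recovery and the calls were checked on simulated data. Recovered totals ran from 6595441 to 11545875 reads.

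Fold changes are differences of deposited log2 values. A call needed 4 normalized reads in either library and a change of 2-fold. Intervals of the ratio of reads are exact (Clopper-Pearson, 95%). A library with 0 reads was set to 3 reads for a bound, which leaves out counting error in the other library. With 1 library per group no test between groups was run, and lists are described by counts and medians beside all 13725 genes with a mean of at least 4.

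Named are the Timp genes, Adam10, Adam17, Mmp2, Mmp9, Mmp14, each member with a mean of at least 16 and a call, and the 6 most abundant, which made 24 members. Of the partner lists, those named have a mean of 16 or more and a change among the 3 largest of a comparison, or bear on a result. Genes with few reads and members outside this rule were added after their values were seen. The members and lists were chosen with earlier results of these data known. Alternatives covered the scaling, the pseudocount and the minimum. Locations are from GENCODE M21 (GRCm38), promoter windows from RefSeq (GRCm38.p6), of the same build as mm10. Scripts ran in Python (3.11.15), with pandas (2.3.3) and numpy (2.4.6) for tables, scipy (1.17.1) for intervals and matplotlib (3.10.9) for figures. Gastrocnemius and lung libraries were not analysed here.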

Additional observations from a re-analysis of the deposited data

Results flagged for a closer look

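For 4 members the effect of exercise had opposite directions without and with cancer, each by at least 2-fold. The log2 change of Timp1 was 1.26 without cancer and -2.30 with it, that of Mmp3 was 1.37 and -1.60, that of Adamts2 1.23 and -1.75, and that of Adamts15 1.22 and -1.30. Each arm rests on 1 library, so the difference between both effects was not tested. All 4 genes kept both calls under the other scalings and the larger pseudocount. In each case the library E(-)T(+) was the highest and E(-)T(-) the lowest of the 4.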

How the results depend on the processing

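No paired analysis was possible because each group has 1 library. Leaving out a replicate was not possible for the same reason. Scaling to library totals, globin reads included, moved the counts of lower members in both comparisons of E(+)T(+): with exercise in cancer-bearing mice 22 members were lower and 0 higher, with a median of -1.10, and with cancer in exercised mice 16 were lower, with a median of -0.69. Among the named members it gave 7 further calls and 1 lost call (Mmp8) in the first, and 4 further and 2 lost calls (Timp1 and Adamts1) in the second. Leaving genes over 1% of a library out of the sizes gave 1 member higher with exercise in cancer-bearing mice. A pseudocount of 4 gave 1 member lower with exercise in normal mice, and took the call from Adamts7 with cancer in sedentary mice (-0.997) and from Adam23 with exercise in cancer-bearing mice (-0.98). A mean of at least 16 left 0 members lower with exercise in normal mice and 1 higher with exercise in cancer-bearing mice. With no minimum, 10 members were lower with exercise in normal mice and 11 with cancer in sedentary mice, 11 were higher with exercise in cancer-bearing mice (median -0.31) and 16 with cancer in exercised mice (median 0.20). Shares of all genes called are given for the main setting alone. The counts under these other settings thus have no background beside them. The minimum sets how many genes are counted and the scaling sets the size of each library. A larger pseudocount makes changes look smaller, most of all for genes with few reads, as said above for the added 1. Setting genes with 0 reads to their bound, and leaving out those at or under 3 reads in both libraries, gave medians of 0.08, 0.19, -0.55 and -0.01 for exercise in normal mice, cancer in sedentary mice, exercise in cancer-bearing mice and cancer in exercised mice. Counts of a few reads limit Mmp13, Mmp16, Adam1a, Adam9, Adam12, Adamts3 and Adamtsl3. Few or no reads in the normal control also limit the size of the changes of Mmp8, Adam8, Adamts4 and Adamts8.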
